A study of Mus musculus with 8 samples.

Results

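EGR, NR4A and other immediate early genes were examined in stromal cells sorted from ulcers of the small intestine. The 10 genes were Egr1, Egr2, Egr3, Nr4a1, Nr4a2, Nr4a3, Ier2, Ier3, Dusp1 and Zfp36. The genes were chosen by symbol; all 10 were found among the 53801 genes listed, and 10 of 10 passed the count filter that left 15945 genes for testing. All cells came from LTβRYFP mice given indomethacin, a drug that blocks cyclooxygenases and causes ulcers of the small bowel. Flow cytometry divided CD45- CD31- cells, a gate against leukocytes and endothelium, into a YFP+ fraction (4 libraries) and a YFP- fraction (4 libraries), each numbered 1 to 4. There were no untreated mice, so that no level could be set against uninjured tissue. The sources used here do not give how YFP relates to the lymphotoxin beta receptor, nor which mice a library came from. The p-values thus reflect the spread between libraries. In the fit paired by replicate number they reflect the spread of the differences between libraries of equal number. Either spread may be technical.

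Immediate early genes are transcribed within minutes of a stimulus, without new protein synthesis, from factors already present in the cell. Growth factor and stress signals reach them through the ERK, p38 and JNK kinases, serum response factor (SRF) with its ternary complex partners at CArG boxes, and CREB at cyclic AMP response elements. Their transcripts are short-lived. EGR proteins are zinc finger transcription factors and NR4A proteins are orphan nuclear receptors, whereas DUSP1 and the tristetraprolin protein encoded by Zfp36 shut the response down, by dephosphorylating MAP kinases and by destabilising AU-rich transcripts. Tissue dissociation is also known to induce these genes; its part in the levels below was not tested.

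Total counts in genes ranged from 12481608 to 29385718 per library, and the members held 664 to 119969 counts each, so that counting error was small beside the spread between libraries. The libraries of replicate number 2 stood apart on the first principal component (35.5% of the variance, at 92.5 and 78.7, against -46.2 to -12.4 for the others). Libraries of equal number deviated together from their group means (correlations 0.233, 0.487, 0.376 and 0.376). Between YFP- and YFP+ libraries of unequal number the correlations ran from -0.337 to 0.0456. The numbers were taken to pair the samples. Fibroblast markers (8 of 8 tested, among them Pdgfra, Col1a1 and Dcn) summed to between 21988 and 52663 CPM (read counts scaled to a common library size with TMM factors), against 20.7 to 86.7 CPM for 9 leukocyte and 15.7 to 107 CPM for 6 endothelial markers, the cells that the gate was to remove.

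The 10 genes were abundant in every library and together took 0.326% to 0.897% of its counts. Per kilobase of annotated exon, Egr1, which encodes the best known factor of its family, stood highest, with a mean of 716 CPM per kb over the 8 libraries (319 to 997) and rank 31 of 15924 genes. Nr4a1 followed at 289.9 CPM per kb, below Egr1 and above the next gene in 8 of 8 libraries each. Ier3, Dusp1, Zfp36 and Ier2 lay close together at 206, 205, 202 and 195 CPM per kb; the order between neighbours held in 3, 4 and 6 of 8 libraries, so these 4 levels did not differ beyond their spread. Nr4a3 (47.6), Nr4a2 (28.9), Egr2 (23.2) and Egr3 (16.5 CPM per kb) formed the lower end, each above the next in 8, 7 and 8 of 8 libraries. These lengths are the union of all annotated exons, which for Zfp36 covers the whole gene (3470 bases), so levels per kb depend on the annotation.

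RefSeq start site windows of GRCm38.p6 (250 bases before and 50 after an annotated start) were available for 7 of the 10 genes, in 11 windows. No window was available for Egr1, Egr3 and Ier2, so these genes were not searched for motifs. They are shown because the levels of the 10 genes varied together across the libraries. Any part of the motifs in that variation was not tested. Motifs were searched on both strands. A CArG box consensus, the site of SRF, was found for Egr2 and Zfp36, and is held by 1.63% of the 32851 windows searched. Such shares count single windows, whereas a gene is counted here if any of its windows matched, and Egr2 has 5 windows. TGACG, the core of the cyclic AMP response element, held by 20.8% of all windows, was found for Egr2, Dusp1 and each of Nr4a1, Nr4a2 and Nr4a3. The 3 NR4A windows had 4 TGACG sites each; 0.231% of all windows had 4 or more, a number chosen after the matches were seen. The full element TGACGTCA (1.79% of windows) was found for Dusp1, where it contains 2 of the 3 TGACG sites. An EGR site, GCGTGGGCG or GCGGGGGCG (3.47% of windows), was found 60 bases before the start of Nr4a1 and 105 bases before that of Zfp36. AAAGGTCA, to which NR4A monomers bind (1.51% of windows), was found in none of the 11 windows, and Ier3 had none of these motifs. A match is a description of letters, not evidence of binding.

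The stretches that carry the CArG boxes and TGACG sites follow, 5′ to 3′ along the gene's strand, outside annotated UTRs, with both motifs in capitals (CGTCA is TGACG on the other strand). Egr2 has 5 annotated starts, and windows of 3 neighbouring ones hold both motifs. The first of these 3 is shown after the window of an earlier start, which holds another CArG box alone. The first bases from that earlier start lie in no transcript of the GENCODE annotation. The Nr4a3 and Dusp1 stretches stop at an annotated UTR, and for Zfp36, whose window lies in a longer transcript's UTR, only 30 bases around the CArG box are given.
Egr2, chr10:67537316-67537565, plus strand: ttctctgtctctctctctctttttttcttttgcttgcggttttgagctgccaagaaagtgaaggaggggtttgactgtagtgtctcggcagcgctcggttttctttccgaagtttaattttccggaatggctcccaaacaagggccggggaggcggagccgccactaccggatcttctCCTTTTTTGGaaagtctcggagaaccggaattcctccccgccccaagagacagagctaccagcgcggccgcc
Egr2, chr10:67537619-67537868, plus strand: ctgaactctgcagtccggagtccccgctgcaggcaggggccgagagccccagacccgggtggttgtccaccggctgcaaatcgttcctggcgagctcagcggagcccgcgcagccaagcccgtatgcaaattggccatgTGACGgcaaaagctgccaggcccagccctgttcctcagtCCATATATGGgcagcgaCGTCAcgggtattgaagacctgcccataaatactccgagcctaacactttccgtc
Nr4a1, chr15:101266596-101266845, plus strand: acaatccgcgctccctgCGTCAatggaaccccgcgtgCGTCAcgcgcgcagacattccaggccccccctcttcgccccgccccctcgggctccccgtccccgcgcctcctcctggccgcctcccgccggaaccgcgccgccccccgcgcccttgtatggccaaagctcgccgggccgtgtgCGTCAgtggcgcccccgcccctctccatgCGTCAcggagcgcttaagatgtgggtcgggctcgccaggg
Nr4a2, chr2:57124004-57124253, minus strand: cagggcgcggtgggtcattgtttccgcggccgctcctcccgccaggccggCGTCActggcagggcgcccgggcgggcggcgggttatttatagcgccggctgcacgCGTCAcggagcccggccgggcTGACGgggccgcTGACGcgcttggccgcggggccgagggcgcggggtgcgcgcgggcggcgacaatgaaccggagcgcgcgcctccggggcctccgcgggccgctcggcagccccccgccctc
Nr4a3, chr4:48045055-48045152, plus strand: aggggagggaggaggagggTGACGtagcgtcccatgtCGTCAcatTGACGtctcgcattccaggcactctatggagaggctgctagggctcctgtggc
Dusp1, chr17:26508520-26508722, minus strand: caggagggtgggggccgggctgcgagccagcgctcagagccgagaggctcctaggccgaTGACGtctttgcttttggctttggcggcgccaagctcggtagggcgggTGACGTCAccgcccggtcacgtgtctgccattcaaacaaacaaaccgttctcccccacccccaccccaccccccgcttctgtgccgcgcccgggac
Zfp36, chr7:28379267-28379296, minus strand: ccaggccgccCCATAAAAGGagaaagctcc
In the second Egr2 stretch the CArG box began 72 bases before the start, between TGACG sites at 111 and 55 bases; the CArG box of the first began 72 bases before its own start. The CArG box of Zfp36 began 58 bases before its start. TGACG sites of Nr4a1 began 233, 213, 69 and 40 bases, of Nr4a2 200, 144, 123 and 111 bases, and of Nr4a3 231, 213, 205 and 147 bases before the start, the last outside the stretch printed.

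**Figure D1:**
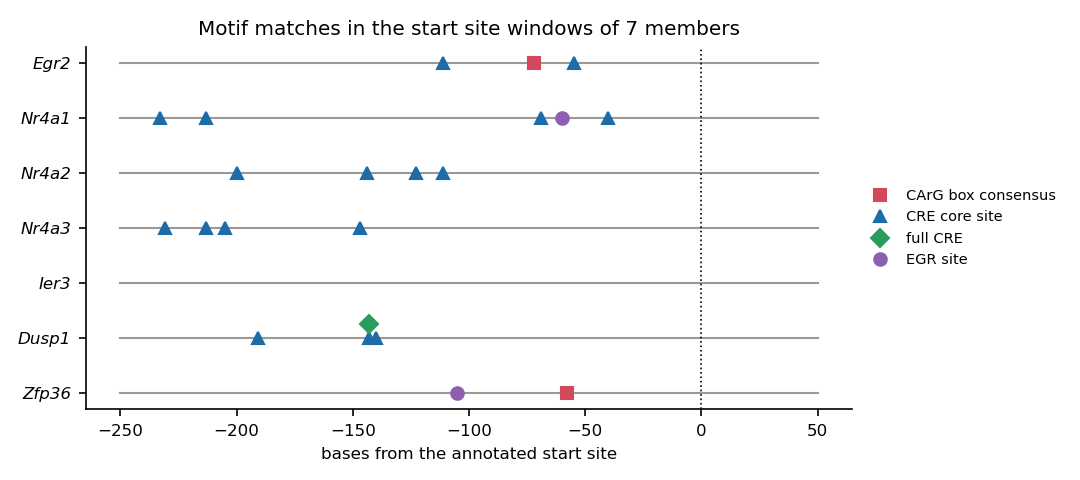
Matches to 4 motifs (symbols) along the start site windows of 7 members (for Egr2, the second stretch printed), in bases from the annotated start (dotted line); for Dusp1 the full element is drawn above the TGACG sites it contains. The 3 NR4A genes have 4 TGACG sites each, the CArG boxes of Egr2 and Zfp36 lie 72 and 58 bases before the start, and Ier3 has no match.

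Across libraries the 10 genes varied together, and mainly with the replicate number. Egr1 (ENSMUSG00000038418, GRCm38 chromosome 18, 34859823 to 34864984, plus strand) stood at 4469, 4203, 2883 and 2454 CPM in YFP- libraries 1 to 4 and at 4132, 3533, 2583 and 1430.4 CPM in YFP+ libraries 1 to 4. Libraries 1 and 2 were thus high and library 4 was lowest in both fractions, the groups overlapped, and each YFP+ library lay below the YFP- library of its number. Replicate number 4 had the lowest mean of both fractions in 10 of 10 genes, and number 1 or 2 the highest. The fold between the highest and lowest number, averaged over both fractions on the log2 scale, ran from 1.85 for Dusp1 to 3.06 for Nr4a3. Its median was 2.48 over the members, beside 1.64 over 10534 genes with a mean of at least 5 CPM. Of those 10534 genes, 63.7% had a smaller range than Dusp1 and 90.5% a smaller range than Nr4a3. Pearson correlations of log2 CPM over the 8 libraries were between 0.847 (Egr2 with Ier2) and 0.9898 for the 45 pairs of members, with a median of 0.949. These are descriptions of 8 libraries that share replicate numbers, and they carry no test. The sources used here do not give which animals, days or sorts the numbers stand for.

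**Figure D2:**
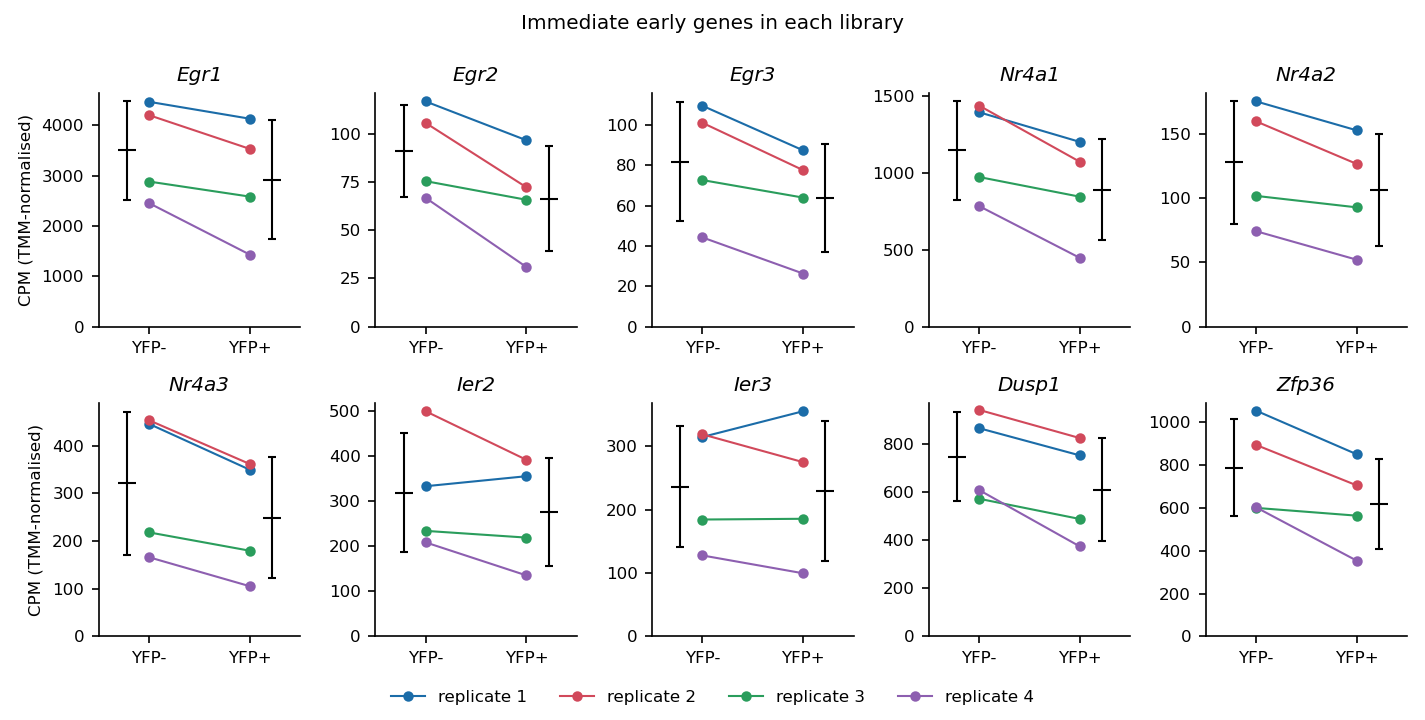
Level of each member (CPM, y axis from 0) in the 4 YFP- and 4 YFP+ libraries; lines join libraries of equal replicate number, and black marks give the mean ± SD of each fraction (n = 4). In YFP+ cells number 4 is the lowest point for every member, and most lines slope down from YFP- to YFP+ cells.

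**Figure D3:**
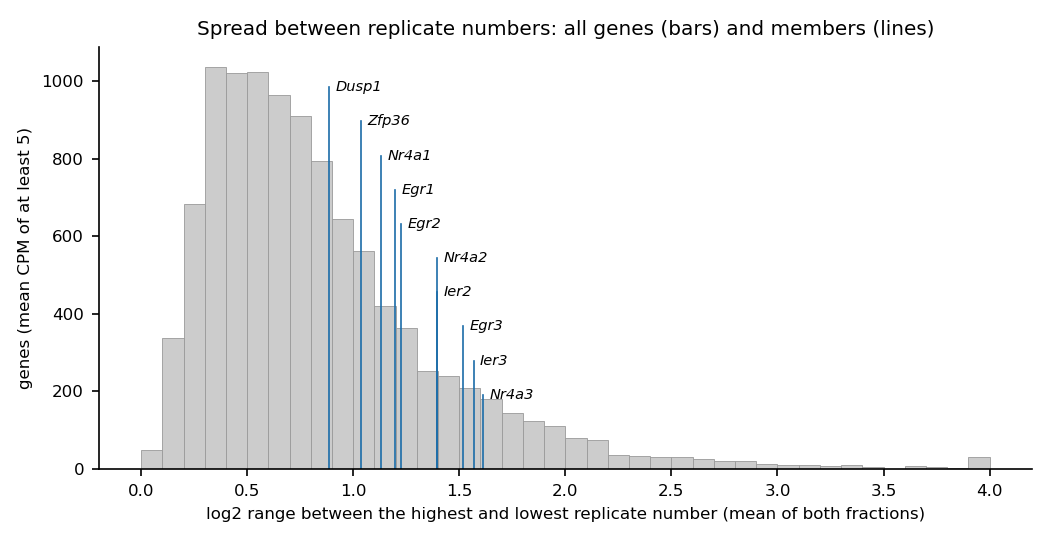
Bars count genes with a mean of at least 5 CPM by the log2 range between their highest and lowest replicate number (mean of both fractions; the last bar pools ranges of 4 and above); blue lines mark the members. The members lie from 0.89 (Dusp1) to 1.61 (Nr4a3), to the right of the peak of the bars.

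The comparison of the fractions asked whether cells carrying the reporter differed from those that did not. Nr4a1, Nr4a3, Egr3 and Dusp1 fell in YFP+ cells, to 0.751, 0.757, 0.756 and 0.795 of their YFP- level, in the fit that paired libraries by replicate number; in the planned fit without pairing 0 of the 10 members passed. "Rose" and "fell" refer to the paired fit throughout. The other 6 members did not pass; all 10 estimates were negative, from -0.52 for Egr2 to -0.09 for Ier3 on the log2 scale. Of the 10 members, 4 fell and 0 rose (edgeR with the replicate number as a block, Benjamini-Hochberg adjusted p of 0.05 or below over all genes tested), beside 1.59% of all genes tested that fell and 0.696% that rose. Their median log2 fold change was -0.35, beside 0.0048 over all genes tested. Without the block, edgeR called 0 of the 10 members and 0 of 15945 genes (0%); at an unadjusted p of 0.05 it gave 156 genes higher and 169 lower, none of them a member, and DESeq2 called 2 genes lower, Gfap and 4930533B01Rik, named after their values were seen. In 10 of 10 members the fractions overlapped, beside 0.859% of genes whose YFP+ libraries all lay below, and 0.69% whose YFP+ libraries all lay above, the YFP- libraries. In 8 of 10 members the YFP+ library was lower in 4 of 4 pairs, as in 10.2% of all genes tested. The members varied together across the libraries (median correlation 0.949), so these counts of members are not separate observations.

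The authors' deposited table, whose log2 fold changes were matched by a DESeq2 fit blocked on replicate number with a largest difference of 0.00050, had 8 of the 10 members lower at an adjusted p of 0.05 or below, beside 2.07% of the genes with an adjusted p that were lower and 0.939% that were higher. DESeq2 with the block on the filtered genes likewise had 8 members lower, beside 2.28% of genes lower and 1.07% higher. Of the members that edgeR with the block did not call, Egr1, Egr2, Nr4a2 and Zfp36 were at adjusted p = 0.00623, 0.00568, 0.0458 and 0.000803 in the authors' deposited table. Ier2 and Ier3 were at 0.205 and 0.859 in the authors' deposited table.

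Differences were largest in replicate number 4, where the YFP+ library was below its partner in 10 of 10 members, by a median of -0.73 on the log2 scale, beside -0.21, -0.34 and -0.17 in numbers 1, 2 and 3. Number 4 gave the largest fall in 10 of 10 members. With both libraries of number 4 left out, edgeR with the block called 1 member, Nr4a3 (all genes: 0.751% lower, 0.294% higher), and without number 2, whose libraries stood apart, it called Nr4a3 and Dusp1 (all genes: 1.83% lower, 0.802% higher). Without number 1 it called Nr4a3 alone (all genes: 0.75% lower, 0.452% higher), and without number 3 Nr4a1, Nr4a3 and Zfp36 (0.746% lower, 0.238% higher). With library sizes alone, which moved the median of all genes to 0.091, it called Nr4a1 and Nr4a3 (0.96% lower, 1.33% higher).

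**Figure D4:**
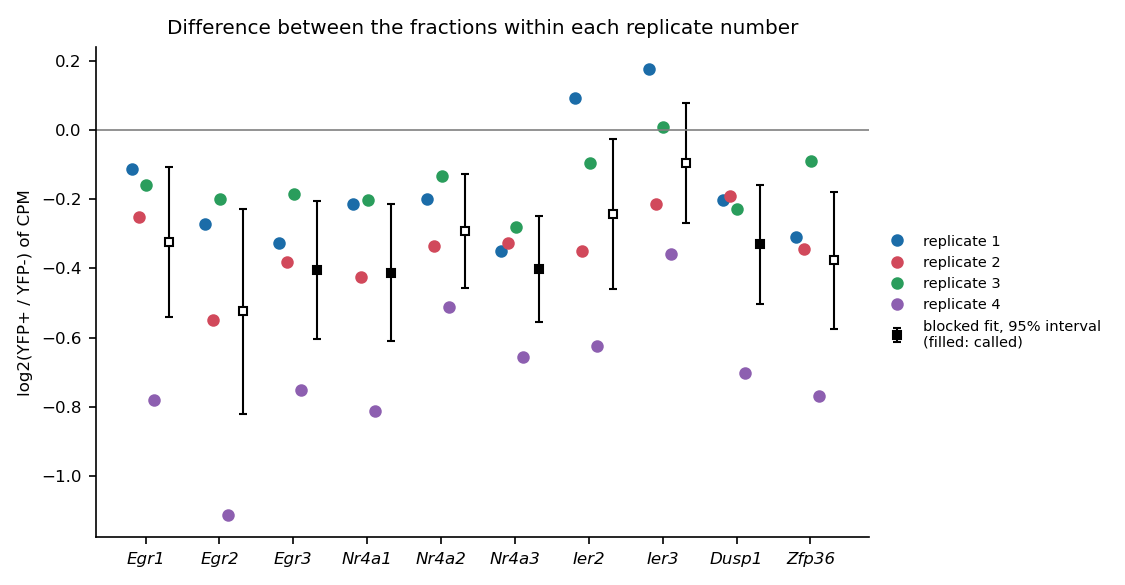
Log2 ratio of YFP+ to YFP- CPM in each replicate number (coloured points) and the log2 fold change of the blocked edgeR fit with its 95% interval (squares, filled where called) for each member. Number 4 is the lowest point for every member, and only Ier2 and Ier3 have points above 0.

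Among the EGR factors, Egr3 (ENSMUSG00000033730, chromosome 14, 70077203 to 70082614, plus strand) stood at 109.6, 101, 72.7 and 44.2 CPM in YFP- libraries 1 to 4 and at 87.4, 77.6, 64.0 and 26.3 CPM in the YFP+ libraries. It was lower in 4 of 4 pairs, and fell by 0.40 on the log2 scale (SE 0.0935; adjusted p = 0.0330, edgeR with the block). It was called in 7 of 12 other settings of the blocked comparison (other tools, scalings and filters, or a replicate number left out). The call of Egr3 was lost without any 1 of the 4 numbers and with library sizes alone (adjusted p from 0.0513 to 0.207, edgeR with the block). Egr2 (ENSMUSG00000037868, chromosome 10, 67535475 to 67542188, plus strand) had 117, 106, 75.6 and 66.8 CPM in the YFP- and 96.8, 72.4, 65.9 and 30.9 CPM in the YFP+ libraries. Its estimate was the most negative of the members and also the least precise, at -0.52 with a 95% interval from -0.82 to -0.23 (adjusted p = 0.0927, edgeR with the block), since the pair differences ran from -0.20 in number 3 to -1.11 in number 4. Egr1, by far the most abundant member, went from a mean of 3502 ± 984 to 2919.6 ± 1179.9 CPM (SD, n = 4), a log2 fold change of -0.32 (-0.54 to -0.11; adjusted p = 0.164, edgeR with the block). Its difference was -0.11, -0.25, -0.16 and -0.78 in numbers 1 to 4, so that number 4 stood apart from the other 3. The mean difference of Egr1 over numbers 1 to 3 was -0.17.

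All 3 NR4A receptor genes, whose products act without a known ligand, were lower in 4 of 4 pairs. Nr4a3 (ENSMUSG00000028341, chromosome 4, 48045153 to 48086447, plus strand) stood at 446, 454, 218 and 166 CPM in YFP- libraries 1 to 4 and at 349.9, 362, 179.9 and 105 CPM in the YFP+ libraries. Its difference was -0.35, -0.33, -0.28 and -0.66 in numbers 1 to 4, so that 3 of 4 lay close together, and its adjusted p was the lowest of the members (log2 fold change -0.40 ± 0.0714, SE; adjusted p = 0.00618, edgeR with the block). Nr4a3 was called in 12 of 12 other blocked settings, with adjusted p of at most 0.0353. Nr4a1 (ENSMUSG00000023034, chromosome 15, 101254269 to 101274795, plus strand) had 1392, 1435, 971 and 782 CPM in the YFP- and 1199, 1070.1, 843 and 446 CPM in the YFP+ libraries. It fell by 0.41 on the log2 scale (SE 0.0908, adjusted p = 0.0372, edgeR with the block) and was called in 8 of 12 other blocked settings. The call of Nr4a1 was lost without number 1, 2 or 4 (adjusted p = 0.05003, 0.1105 and 0.0600, edgeR with the block). Another tool, limma voom with quality weights and the block, did not call it either (adjusted p = 0.140). Nr4a2 (ENSMUSG00000026826, chromosome 2, 57106830 to 57124003, minus strand) had 176, 160.1, 102 and 74.4 CPM in the YFP- and 153, 127, 93.0 and 52.1 CPM in the YFP+ libraries, with a log2 fold change of -0.29 (-0.46 to -0.13; adjusted p = 0.0696, edgeR with the block). The intervals of the 3 receptors overlapped.

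Of the shut-off genes, Dusp1 fell and Zfp36 did not pass. Dusp1 (ENSMUSG00000024190, chromosome 17, 26505590 to 26562128, minus strand), which encodes a nuclear phosphatase of p38 and JNK, stood at 865, 941, 572 and 608 CPM in YFP- libraries 1 to 4 and at 752, 824, 488 and 374 CPM in the YFP+ libraries. The log2 fold change was -0.33 ± 0.0807 (SE; adjusted p = 0.0475, edgeR with the block), with -0.20, -0.19, -0.23 and -0.70 in numbers 1 to 4. Dusp1 was called in 7 of 12 other blocked settings; without number 4 its estimate was -0.21 (adjusted p = 0.215, edgeR with the block). Zfp36 (ENSMUSG00000044786, chromosome 7, 28376784 to 28380253, minus strand) had 1053, 893, 599 and 602 CPM in the YFP- and 849, 704, 563 and 353 CPM in the YFP+ libraries, lower in 4 of 4 pairs, and just missed the threshold (log2 fold change -0.38, -0.57 to -0.18; adjusted p = 0.0569, edgeR with the block). Each overlaps a gene on the opposite strand, Ergic1 by 11 and Gm44710 by 125 exonic bases, and the sources used here do not give the strand setting of the counting. Ergic1 had 17832 and Gm44710 1993 counts over all libraries.

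Ier2 and Ier3 were the members without a common direction. Ier3 (ENSMUSG00000003541, chromosome 17, 35821684 to 35822923, plus strand), whose product modulates apoptosis and NF-kB signalling, stood at 315, 319, 184 and 128 CPM in YFP- libraries 1 to 4 and at 355, 275, 186 and 99.6 CPM in the YFP+ libraries. It was lower in 2 of 4 pairs, and its interval ran from a 0.831-fold to a 1.06-fold level (adjusted p = 0.782, edgeR with the block). Without the block its sign turned under library sizes alone and on leaving out any 1 of 4 libraries (YFP- 1 or 2, YFP+ 3 or 4). Ier2 (ENSMUSG00000053560, chromosome 8, 84661331 to 84662852, minus strand), which encodes a nuclear protein, had 333, 499, 234 and 208 CPM in the YFP- and 355, 391, 219 and 135 CPM in the YFP+ libraries, lower in 3 of 4 pairs (log2 fold change -0.24, -0.46 to -0.02; adjusted p = 0.369, edgeR with the block). Both still followed the replicate numbers, with a 2.63-fold range for Ier2 and 2.96-fold for Ier3.

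Other genes of the response were read from lists chosen for the pathway. Of 9 AP-1 factors, which are induced with the EGR genes, 0 fell and 0 rose, although 9 of 9 estimates were negative and the median was -0.33. Jun went from 1796 ± 799 to 1421 ± 686 CPM (SD, n = 4; adjusted p = 0.0506, edgeR with the block), and Fosb from 1857 ± 739.7 to 1441 ± 745 CPM (n = 4; adjusted p = 0.508). Of 25 other immediate early genes, 2 fell and 0 rose, with a median of -0.16: Arc, best known as a synaptic regulator, went from 55.4 ± 28.9 to 42.2 ± 26.6 CPM (n = 4; adjusted p = 0.0214, edgeR with the block), and the kinase gene Sgk1 from 139.7 ± 52.4 to 115 ± 59.2 CPM (n = 4; adjusted p = 0.0439). Arc was called in 8 and Sgk1 in 7 of 12 other blocked settings; neither passed without number 1, 3 or 4 or under library sizes alone, where their adjusted p in edgeR with the block reached 0.137 and 0.281. Of 7 paralogs and EGR corepressors, 1 fell, the tristetraprolin relative Zfp36l2 (log2 fold change -0.28, adjusted p = 0.0353, edgeR with the block), and 0 rose, with a median of -0.15. The call of Zfp36l2 was lost without any 1 of the 4 numbers and with library sizes alone (adjusted p from 0.0729 to 0.196, edgeR with the block). Of 5 other dual specificity phosphatases 0 passed, although 5 of 5 estimates were negative (median -0.41). The most abundant, Dusp16 and Dusp10, had estimates of -0.02 and -0.11, and Dusp8, Dusp2 and Dusp14 had -0.41, -0.55 and -0.57.

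Genes of the upstream pathway had medians near that of all genes. Of 6 genes for SRF and its partners 0 passed (median 0.034), with Elk4 and Mkl1 at -0.06 and 0.023. Of 6 CREB genes 0 passed (median -0.038), with Crtc3 and Crem at 0.037 and -0.11. Of 16 genes of the ERK cascade, 2 fell and 0 rose (median 0.013): the receptor gene Egfr went from 466 ± 143 to 388 ± 141 CPM (n = 4; adjusted p = 0.0241, edgeR with the block), and Mknk2, a kinase that ERK activates, from 136 ± 37.2 to 108 ± 37.8 CPM (n = 4; adjusted p = 0.0377). Of 8 p38 and JNK pathway genes, 1 fell (median -0.025): Mapk9, which encodes JNK2, went from 126 ± 33.7 to 88.9 ± 12.8 CPM (n = 4; adjusted p = 0.00624, edgeR with the block). Mapk9 was called in 12 of 12 other blocked settings, Egfr in 8 and Mknk2 in 7. Egfr lost its call with library sizes alone and without number 1, 3 or 4 (adjusted p from 0.107 to 0.158, edgeR with the block), and Mknk2 with library sizes alone and without any 1 of the 4 numbers (0.0615 to 0.244).

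Of 11 ERK feedback genes, 1 rose and 0 fell (median 0.047), and 5 of 11 estimates were negative. Spry1, an inhibitor of receptor tyrosine kinase signalling, stood at 86.8, 98.4, 36.6 and 41.5 CPM in YFP- libraries 1 to 4 and at 112, 123, 54.9 and 55.6 CPM in the YFP+ libraries. Like the members it was high in numbers 1 and 2, yet it was higher in the YFP+ library of 4 of 4 pairs (log2 fold change 0.42 ± 0.0804, SE; adjusted p = 0.0101, edgeR with the block), as were 8.86% of all genes tested. The call was lost without number 3 (adjusted p = 0.105).

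Of 10 transcripts listed as targets of tristetraprolin, Ier3 among them, 1 fell and 0 rose (median -0.085). The cytokine gene Il6 went from 599 ± 258 to 426 ± 221 CPM (n = 4; log2 fold change -0.54, adjusted p = 0.0216, edgeR with the block) and was lower in 4 of 4 pairs; the call was lost without number 1 or 3 (adjusted p = 0.104 and 0.0555). Of 5 NR4A partners and metabolic targets 0 passed (median 0.065), with Pfkfb3 and Rxra at 0.027 and 0.065. Of 13 heat shock genes, 1 fell (median -0.10), the co-chaperone gene Dnajb1, from 204 ± 48.5 to 147 ± 38.3 CPM (n = 4; adjusted p = 0.0291, edgeR with the block). The call of Dnajb1 was lost without number 1, 2 or 4 (adjusted p = 0.164, 0.0788 and 0.0695, edgeR with the block).

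**Figure D5:**
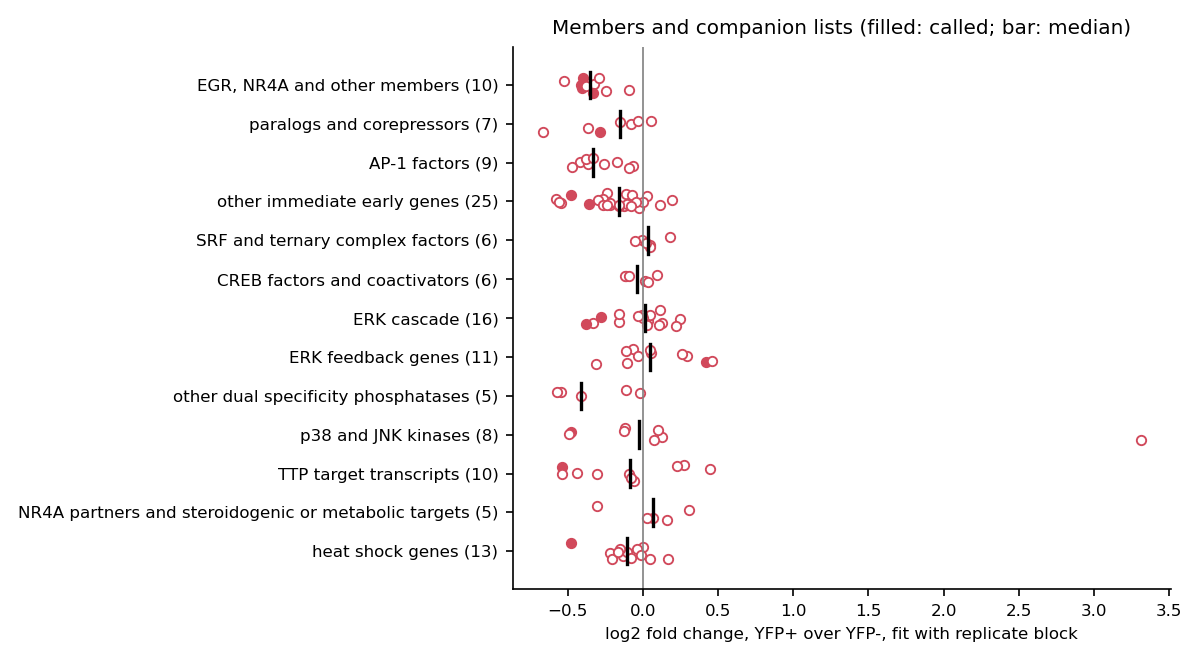
Log2 fold change of the blocked edgeR fit for each tested gene of the members and of 12 companion lists (points, filled where called; number tested in brackets), with each list's median (bar). The medians of the members, the AP-1 list and the other dual specificity phosphatases lie at -0.35, -0.33 and -0.41. Those of the SRF, CREB and ERK lists lie near 0. The point far to the right is Mapk13, at 0.156 and 1.23 CPM.

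By the profile over the 8 libraries, the genes most like the mean of the members (standardised log2 CPM; genes with a mean of at least 5 CPM) were Cxcl1 (r = 0.996), Ppp1r10 (0.988), Enc1, Sik1 and Junb (each 0.987), Kdm6b, Ccl2 and Rundc1 (each 0.986), Cwc25 (0.983) and Wsb1 (0.982). These values rank genes over 8 libraries that share replicate numbers and carry no test. Cxcl1, a neutrophil chemoattractant, stood at 1179, 1169.8, 648 and 558 CPM in YFP- libraries 1 to 4 and at 1112, 884, 575 and 257 CPM in the YFP+ libraries, the same order as Egr1 in both fractions. In the comparison of the fractions, Ppp1r10, Enc1 and Kdm6b fell (adjusted p = 0.0423, 0.0427 and 0.0486, edgeR with the block), and Cxcl1, Ccl2, Sik1, Junb, Wsb1, Cwc25 and Rundc1 did not pass. The 3 calls were made in 7, 6 and 6 of 12 other blocked settings, and that of Enc1 was lost without any 1 of the 4 numbers (adjusted p from 0.0682 to 0.259, edgeR with the block). The profile that chose these genes includes the difference between the fractions, so the calls are a description and no separate support.

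Other measures moved with the fractions in the same pairs. Mitochondrial genes took a lower share of counts in the YFP+ library of 4 of 4 pairs, at 7.98% against 8.27%, 7.99% against 8.75%, 7.71% against 8.07% and 9.43% against 12.4%. Summed enteric glia markers (6) were lower in 4 of 4 pairs (19.2 to 61.8 against 10.2 to 18.3 CPM), as were fibroblast markers, of which 6 of 8 fell (26709 to 52663 against 21988 to 35566 CPM). The fibroblast markers Pdgfra and Pdpn did not pass, with log2 fold changes of -0.0037 and -0.11 (adjusted p = 0.993 and 0.642, edgeR with the block). Summed pericyte markers (5) were lower in 4 of 4 pairs as well (1359 to 1750.4 against 1196 to 1488 CPM). Most of that sum was Rgs5, which fell from a mean of 1140 to 886 CPM (adjusted p = 0.00294, edgeR with the block). Only 1 of the 5 estimates, that of Rgs5, was negative, and the list's median was 0.15. Cspg4 rose (adjusted p = 0.00803, edgeR with the block), and Notch3, Kcnj8 and Abcc9 had positive estimates that did not pass. Summed leukocyte markers were higher in 4 of 4 pairs (20.7 to 37.3 against 21.6 to 86.7 CPM), and so were 6 smooth muscle markers, of which 3 rose (313 to 605 against 387 to 922 CPM). In number 4, where the members differed most, the YFP+ library had 179 CPM of summed epithelial markers, against 36.6 CPM in its partner and 13.1 to 38.3 CPM in the other 6 libraries. Summed endothelial markers were at 107 CPM in the same YFP+ library, 18.0 CPM in its partner and 15.7 to 72.6 CPM in the others. No marker of these lists was at 0 in all libraries. The part of these measures in the members' differences was not tested, and fewer cells of a type cannot be told apart from less RNA per cell in bulk samples.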

How the data were processed

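RNA of 8 libraries (4 YFP+, 4 YFP-) was measured; per the labels' protocols, sorted cells were lysed and libraries made with a low-input stranded total RNA kit (Takara) for Illumina sequencing. The submitters' processing notes name cutadapt 3.4, STAR 2.7.3a, featureCounts 2.0.1, DESeq2 and GRCm38. The settings, annotation release and strand setting could not be taken from any source used here. The table deposited by the authors holds raw counts per gene, the authors' normalised values (a score: counts divided by size factors and rounded, not used here), and the authors' fold changes, log2 fold changes and p-values, per the file headers.

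Tests used the deposited counts: filterByExpr, TMM factors and a robust quasi-likelihood fit in edgeR 4.0.16 (R 4.3.3), two-sided, with Benjamini-Hochberg adjustment over 15945 genes. The planned fit had the fraction alone; the replicate number was added as a block because all 4 correlations of deviations between libraries of equal number were over 0.1, which comes from the data and not from the labels. "Rose" and "fell" refer to the blocked fit. SEs and 95% intervals were derived from its F statistic. Alternatives used DESeq2 1.42.0, limma 3.58.1 voom with quality weights, other scalings and count filters, mitochondrial genes left out, and libraries left out. The script was tested on simulated data. Libraries of a fraction differed by more than sampling noise (chi-square over its degrees of freedom at least 56.6). Coordinates, exon lengths and overlaps are from GENCODE M21 (53706 of 53801 identifiers matched), promoter windows from RefSeq.

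The members, lists and tests were chosen with earlier results of these data known. Named genes were the 10 members, up to 3 called genes in each direction of each companion list (or the 2 most abundant), and the 10 genes most alike in profile.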

Additional observations from a re-analysis of the deposited data

Results flagged for a closer look

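Among the libraries, a single sample stood far from the other 3 of its fraction (by Dixon's test at the 95% level) in 10 of the 98 groups of 4 examined; chance flags about 1 in 20 groups. Crem was high in replicate number 1 of both fractions, at 118.9 CPM in YFP- (others 58.4 to 64.1) and 116 CPM in YFP+ cells (others 50.2 to 60.6). Elk4 was high in number 2 of both, at 344 CPM (others 173 to 176) and 327 CPM (others 156 to 183), and so was Pfkfb3, at 315 CPM (others 76.1 to 105) and 309 CPM (others 85.2 to 103). The mitochondrial share was high in number 4 of both, at 12.4% (others 8.07% to 8.75%) and 9.43% (others 7.71% to 7.99%). Summed enteric glia markers were at 61.8 CPM in YFP- replicate 1 (others 19.2 to 23.5), and summed epithelial markers at 179 CPM in YFP+ replicate 4 (others 13.1 to 37.4). No member of the EGR, NR4A and other immediate early genes had such a library.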

How the results depend on the processing

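Without the block, edgeR called 0 genes and 0 members; with the replicate number as a block it called 111 genes higher and 253 lower, 4 of them members. DESeq2 without the block called 2 genes lower. In the blocked comparison, DESeq2 called 168 genes higher and 357 lower, 8 of them members; voom 221 genes higher and 392 lower; library sizes alone 212 higher, 153 lower and 2 members; and a filter on any count 253 higher, 420 lower and 9 members. Leaving out both libraries of a number gave 73, 130, 38 and 47 genes higher and 121, 296, 119 and 120 lower without numbers 1, 2, 3 and 4, and 1 to 3 members. The cause of these changes was not tested. In the blocked fit no member changed direction; 15 of 120 comparisons of a member with another setting gained the call and 14 lost it. Without the block, leaving out single libraries moved the log2 fold change of Ier2 from -0.43 to 0.088, Ier3 from -0.33 to 0.20, Jun from -0.68 to 0.0017, Elk4 from -0.36 to 0.25, Mkl1 from -0.15 to 0.11, Crtc3 from -0.095 to 0.17, Crem from -0.44 to 0.22, Dusp16 from -0.17 to 0.21, Dusp10 from -0.31 to 0.17, Pfkfb3 from -0.63 to 0.67 and Rxra from -0.11 to 0.21. With the block, leaving out numbers moved Mkl1 from -0.085 to 0.13 (-0.023 without number 1), Dusp16 from -0.089 to 0.067, Dusp10 from -0.28 to 0.10 and Pfkfb3 from -0.018 to 0.049. Other settings turned Ier3 (0.024), Elk4 (0.030) and Dusp10 (0.029) with library sizes alone, Mkl1 with DESeq2 (-0.0031), RLE factors (-0.0028) and voom (-0.069), Dusp16 with the block (-0.020) and voom (-0.11), and Pfkfb3 with DESeq2 (-0.015), RLE factors (-0.014) and a filter on any count (-0.0028); with the block, Elk4 (0.031) and Dusp16 (0.067) turned with library sizes alone and Mkl1 (-0.032) with voom.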
